A study of Homo sapiens with 16 samples.

Results

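The genes described are the 10 that encode the growth factor receptor kinases EGFR, ERBB2, ERBB3, ERBB4, IGF1R and INSR, the insulin receptor substrates IRS1 and IRS2, and the cytoplasmic tyrosine kinases TNK2 (Ack1) and SRC. They were chosen by name, with earlier results of these data known, and make up 10 of the 20531 entries of the count table. RNA was sequenced from LNCaP, a human prostate cancer line that responds to androgen, transfected for a day with a nonsense control siRNA (NS) or with a pool of siRNAs against SLIRP, an RNA-binding protein that acts as a coregulator of nuclear receptors. The cells then spent another day in serum-free medium with ethanol vehicle or with 1 nM dihydrotestosterone (DHT), a potent androgen. There were 4 libraries of control cells without DHT (NS-Veh), 4 of control cells with it (NS-1nM DHT), and 4 each of SLIRP siRNA cells without it (SLIRP-Veh) and with it (SLIRP-1nM DHT). The methods describe the libraries of a group as biological replicates from more than a single experiment, and the labels do not say which replicate came from which experiment. Experiment could therefore not be used as a batch, and the p-values may mix spread within and between experiments. All 4 groups are the same transfected cell line without serum, so each library carries an siRNA, and an effect of the SLIRP pool on other transcripts cannot be told apart from an effect of losing SLIRP.

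EGFR, ERBB2, ERBB3 and ERBB4 form the ErbB family of receptor tyrosine kinases, which act in pairs. ERBB2 binds no known ligand and ERBB3 has little kinase activity of its own, so the pair of ERBB2 and ERBB3 joins a kinase to a receptor for heregulin (neuregulin). IGF1R and INSR signal through IRS1 and IRS2. TNK2 is a CDC42-associated kinase that is activated downstream of ErbB receptors, and SRC is a kinase shared by many receptors.

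Levels are given as CPM, the estimated number of reads on a gene per 1000000 counts of its library, where the library size is the total over genes that passed the low-count filter, scaled by TMM, a factor that corrects for differences in composition. Totals ranged from 436353 to 1689708 counts. SLIRP, listed under its older symbol C14orf156, stood between 45.1 and 63.4 CPM in the 8 NS libraries and between 1.41 and 8.04 CPM in the 8 SLIRP siRNA libraries, and KLK3, the androgen-induced gene of prostate-specific antigen, rose with DHT in NS cells by 2.68 on the log2 scale (SE 0.14, edgeR FDR = 8.21e-15). The 9 luminal prostate markers examined were all detected, and their summed level was 4065 to 4688 CPM in NS and 2972 to 3626 CPM in SLIRP siRNA libraries. FOLH1 was the largest part of this sum, with means of 1960 CPM in NS and 1230 in SLIRP siRNA libraries. KRT18 changed little (362 and 346). The means of KLK3 (164 and 235), KLK2 (15.3 and 29.9) and TMPRSS2 (134 and 185) were higher with SLIRP siRNA, and those of the other markers were lower. In the comparison of siRNAs over all 16 libraries, 4 of the 9 fell, among them FOLH1, HOXB13 and KRT8, and 0 were called higher (edgeR, 17.4% of all genes tested lower and 17.8% higher). This comparison has no term for DHT, so the DHT response of a marker adds to its spread. For KLK3 it gave a log2 fold change of 0.42 with an SE of 0.38, against an SE of 0.16 in vehicle and 0.10 in DHT. Taken apart by treatment, 5 of the 9 fell with SLIRP siRNA in each. By edgeR, 9.95% of all genes tested were lower in vehicle and 11.6% in DHT. KLK3 rose in vehicle (log2 fold change 1.11, edgeR FDR = 1.04e-06), where 11.8% of all genes were higher. In DHT, where 12.8% were higher, KLK3 (0.37), KLK2 (0.92) and TMPRSS2 (0.50) rose, with edgeR FDR values of 0.00327, 0.000195 and 0.00066. Of 8 markers of other cell types, KRT5, TP63, PECAM1 and PTPRC had 0 counts in all 16 libraries, and the 8 together summed to 11.7 to 26.3 CPM.

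The expression levels of the 10 genes spanned 3 tiers when CPM was divided by the length of the transcript in kilobases, which allows genes to be set side by side. ERBB3 (mean 62.2 CPM per kb over 16 libraries) and ERBB2 (62.1) stood well above the rest, and the lowest ERBB2 library (33.5) exceeded the highest TNK2 library (15.3). TNK2 (10.4), SRC (9.97), INSR (5.87), EGFR (5.52) and IGF1R (3.11) formed a middle tier. Below it stood IRS1, IRS2 and ERBB4, without a clean gap. IGF1R exceeded IRS1 in 15 of 16 libraries, and their ranges overlapped.

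Neighbours within that middle tier were not cleanly ordered. TNK2 exceeded SRC in 7 of 16 libraries and INSR exceeded EGFR in 8 of 16, whereas EGFR exceeded IGF1R in 16 of 16, although their ranges over all libraries overlapped. For TNK2 and SRC the 7 libraries were all from NS cells, so their order differed between the siRNAs.

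**Figure D1:**
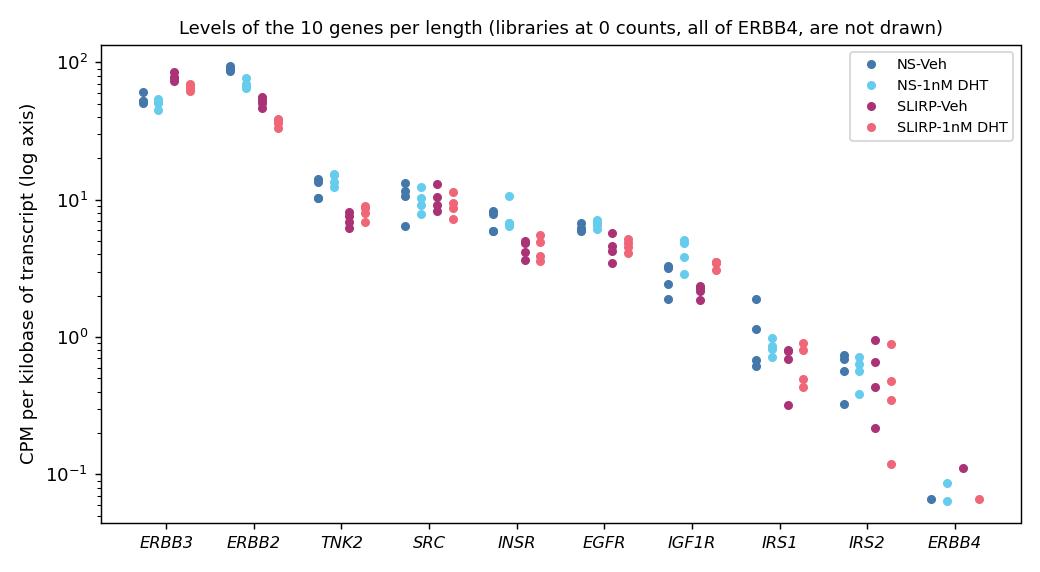
Level of each of the 10 genes in each library, as CPM per kilobase of transcript on a log axis, with 1 point per library and colours for the 4 groups. ERBB3 and ERBB2 lead, TNK2 to IGF1R follow, and IRS1, IRS2 and ERBB4 lie lowest; libraries with 0 counts of ERBB4 are not drawn.

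IRS1, IRS2 and ERBB4 were too low for testing. IRS1, a docking protein for both IGF1R and INSR, had 2 to 14 counts per library, 128 in all, a pooled level of 7.74 CPM (here per plain total count) with an exact Poisson 95% interval of 6.46 to 9.21. The pooled IRS1 level was 9.41 CPM in NS cells with vehicle and 8.10 with DHT, and 6.86 and 6.63 in SLIRP siRNA cells with vehicle and DHT, and the lowest group's interval (4.29 to 9.79) held the values of the others. IRS2 had 1 to 9 counts per library, 70 in all, with group levels between 3.79 and 4.78 CPM. ERBB4, the ErbB receptor that both binds neuregulins and has a working kinase, had 5 counts over the 16 libraries, with 11 libraries at 0, so its pooled level was 0.303 CPM with an interval of 0.0982 to 0.706. These intervals cover counting error only. Differences between groups in these 3 genes were not detectable at this depth. The other 7 genes passed the low-count filter and were tested.

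On hg19, ERBB2 lies on chromosome 17 (37844167 to 37886679, forward strand), ERBB3 on 12 (56470583 to 56497289, forward), EGFR on 7 (55086710 to 55279321, forward), ERBB4 on 2 (212240442 to 213403565, reverse), IGF1R on 15 (99191768 to 99507759, forward), INSR on 19 (7112266 to 7294425, reverse), IRS1 on 2 (227596028 to 227664536, reverse), IRS2 on 13 (110405042 to 110438930, reverse), TNK2 on 3 (195590235 to 195638816, reverse) and SRC on 20 (35973088 to 36034453, forward). The values count reads over the exons of each gene as a whole, so isoforms are not separated.

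Some exons are shared with other genes. ERBB2 overlaps MIEN1 (listed as C17orf37) over 571 exon bases, 5.53% of its own, and PGAP3 over 144, both on the opposite strand. TNK2 overlaps the antisense RNA TNK2-AS1 over 294 bases and a protein-coding model on its own strand over 867 bases, 7.08% of its exon bases, and EGFR overlaps EGFR-AS1 over 186. Whether the counting used strand is not given in the sources used here, so a part of these values is uncertain.

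Promoter windows were taken from RefSeq on GRCh38.p14 and run from 250 bases before to 50 after a listed transcript start. The windows matched 8 of the 10 genes, all but ERBB3 and SRC, with 15 starts, 7 of them of TNK2. The sequences shown are those of ERBB2, EGFR and INSR, the 3 receptors whose mRNA was lower with SLIRP siRNA in the results that follow. They are written 5′ to 3′ on the strand of the gene, with capitals marking matches to the GC box (GGGCGG or CCGCCC, bound by Sp1), the ETS core (CCGGAA or TTCCGG) and the androgen response element half-site (AGAACA or TGTTCT). The ERBB2 stretch covers chr17:39688064-39688113 (forward strand, 30 bases before to 20 after the start), EGFR chr7:55018767-55019016 (forward strand, the 250 bases before the first listed start) and INSR chr19:7294415-7294664 (reverse strand, the 250 bases before the start).
ERBB2: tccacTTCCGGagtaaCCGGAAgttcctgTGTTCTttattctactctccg
EGFR: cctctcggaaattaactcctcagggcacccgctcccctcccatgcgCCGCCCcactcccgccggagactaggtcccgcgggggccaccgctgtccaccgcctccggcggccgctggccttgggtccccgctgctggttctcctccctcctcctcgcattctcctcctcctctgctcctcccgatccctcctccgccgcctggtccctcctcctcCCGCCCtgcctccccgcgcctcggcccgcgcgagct
INSR: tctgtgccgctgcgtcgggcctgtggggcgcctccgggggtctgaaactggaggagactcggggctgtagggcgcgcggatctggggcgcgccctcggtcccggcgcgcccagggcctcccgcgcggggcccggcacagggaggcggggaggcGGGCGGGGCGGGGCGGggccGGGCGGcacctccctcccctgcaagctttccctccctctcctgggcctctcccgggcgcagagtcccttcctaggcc

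In its whole 300-base window INSR held 4 GC boxes and the first EGFR window 3, while the ERBB2 window held none. GC boxes were common, on either strand in 45.0% of all 35116 windows of the table. The ERBB2 window instead held 2 ETS cores, a motif present in 17.2% of all windows, and 1 androgen response element half-site, present in 14.8%. The GC content was 60.7% for the ERBB2 window, 75.3% for the first EGFR window and 78.3% for the INSR window. The palindrome of the half-site, AGAACA and TGTTCT separated by 3 bases of any kind, which contains the half-site on each strand, occurred in 1 window of the table and in none of the 15. Of the 7 TNK2 windows, 4 held GC boxes, 1 of these also an ETS core, and the other 3, the first among them, held none of the 3 motifs. The half-site also occurred once in the second EGFR window and once in the ERBB4 window. These matches describe letters in a window and no binding was measured.

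The comparison of 8 SLIRP siRNA with 8 NS libraries, which pools both treatments, asks how loss of SLIRP alters the transcriptome. ERBB2, TNK2, INSR and EGFR mRNA were lower and ERBB3 mRNA was higher with SLIRP siRNA. Each of these 5 genes separated the 8 NS from the 8 SLIRP siRNA libraries without overlap. The share of all genes tested that separates in this way was not counted, so this describes the 5 genes only. IGF1R and SRC were not called. Over all 10167 genes tested, 17.4% were called lower and 17.8% higher by edgeR's quasi-likelihood test at an FDR of 0.01, against 4 lower and 1 higher of the 7 tested here. The median log2 fold change was −0.51 over these 7 genes and −0.0145 over all genes tested.

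ERBB2, the receptor without a ligand of its own, stood at 414, 426, 392 and 410 CPM in NS-Veh and at 350, 319, 299 and 307 in NS-1nM DHT. It stood at 256, 243, 214 and 232 in SLIRP-Veh and at 153, 165, 174 and 177 in SLIRP-1nM DHT. The 4 groups followed each other in this order with no library out of place. With SLIRP siRNA, ERBB2 fell by 0.84 on the log2 scale (SE 0.0996, edgeR FDR = 3.87e-08), a 1.79-fold lower level. The genes that overlap ERBB2 were also lower, C17orf37 by a log2 fold change of −0.43 (SE 0.11, edgeR FDR = 0.00276) and PGAP3 by −1.03 (SE 0.27, edgeR FDR = 0.00219), at mean levels of 57.3 and 12.4 CPM. Their part in the ERBB2 values was not tested.

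ERBB3, the neuregulin-binding partner of ERBB2, moved the other way. It stood at 282, 294, 344 and 295 CPM in NS-Veh and at 288, 282, 253 and 304 in NS-1nM DHT. With SLIRP siRNA it stood at 439, 478, 429 and 412 in SLIRP-Veh and at 382, 393, 367 and 347 in SLIRP-1nM DHT. Every SLIRP siRNA library lay above every NS library, the closest being 347 and 344 CPM. ERBB3 rose by 0.46 (SE 0.071, edgeR FDR = 3.16e-06), a 1.38-fold higher level.

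EGFR, the receptor for EGF and TGF-alpha, stood at 62.0, 60.3, 66.7 and 58.6 CPM in NS-Veh and at 67.1, 60.9, 64.4 and 70.9 in NS-1nM DHT. It stood at 34.3, 42.3, 45.7 and 57.0 in SLIRP-Veh and at 50.9, 45.1, 40.8 and 48.3 in SLIRP-1nM DHT. The groups did not overlap, but the highest SLIRP siRNA library, SLIRP-Veh replicate 4, came close to the lowest NS library. EGFR fell by 0.51 (SE 0.11, edgeR FDR = 0.000216).

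TNK2 stood at 42.0, 41.7, 57.5 and 54.6 CPM in NS-Veh and at 54.5, 62.5, 50.5 and 61.4 in NS-1nM DHT. It stood at 33.1, 28.2, 30.9 and 25.4 in SLIRP-Veh and at 32.6, 28.2, 36.9 and 35.4 in SLIRP-1nM DHT. Every SLIRP siRNA library was lower than every NS library. The mRNA of this kinase fell by 0.79 (SE 0.12, edgeR FDR = 1.79e-06), a 1.73-fold lower level.

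Between the receptors for insulin and IGF1 the call differed. INSR stood at 56.0, 55.6, 78.0 and 74.7 CPM in NS-Veh and at 101, 64.0, 61.0 and 63.6 in NS-1nM DHT. With SLIRP siRNA INSR stood at 45.6, 39.1, 47.1 and 34.2 in SLIRP-Veh and at 33.9, 52.2, 46.6 and 37.0 in SLIRP-1nM DHT. The groups did not overlap, and INSR fell by 0.75 (SE 0.13, edgeR FDR = 1e-05). IGF1R stood at 40.0, 23.2, 39.0 and 29.7 CPM in NS-Veh and at 61.9, 59.4, 47.0 and 35.1 in NS-1nM DHT. With SLIRP siRNA it was at 27.8, 26.6, 22.9 and 28.9 in SLIRP-Veh and at 43.0, 42.3, 37.9 and 43.4 in SLIRP-1nM DHT. The siRNA groups of IGF1R overlapped, and its log2 difference of −0.34 (SE 0.17, 95% interval −0.68 to 0.01) missed the threshold (edgeR FDR = 0.102). Whether the INSR and IGF1R changes differ from each other was not tested.

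SRC, the other cytoplasmic kinase, ranged from 30.1 to 61.8 CPM in the 8 NS libraries and from 33.8 to 60.5 in the 8 SLIRP siRNA libraries, so that the groups overlapped almost entirely. Its log2 difference was −0.10 (SE 0.13, edgeR FDR = 0.557), with a 95% interval of −0.37 to 0.17.

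**Figure D2:**
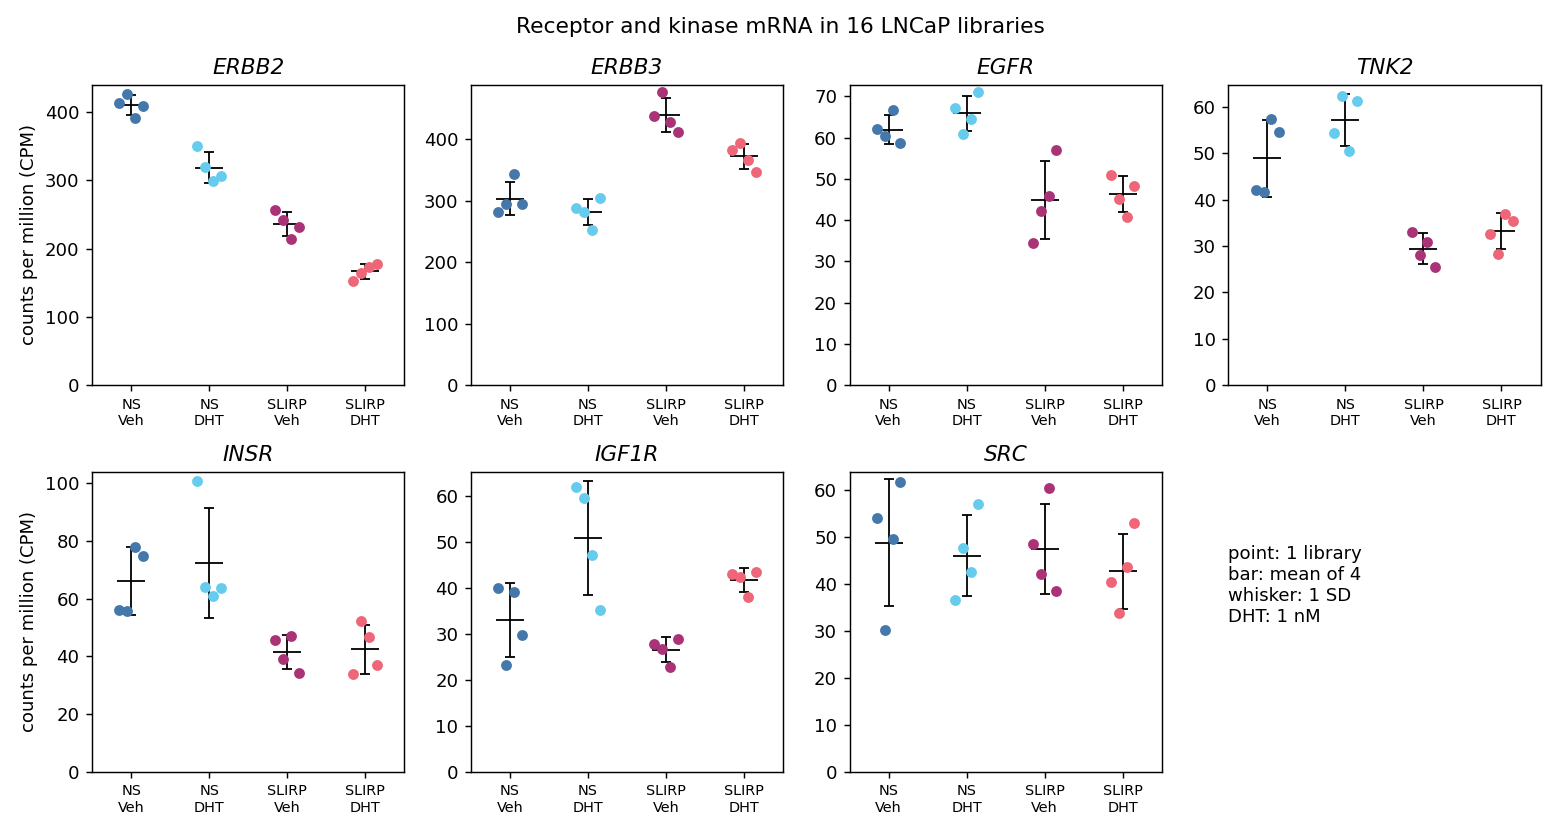
CPM of the 7 tested genes in each of the 16 libraries (y axes start at 0), with 1 point per library, a bar for the mean of 4 libraries and whiskers of 1 SD. ERBB2 steps down from NS-Veh (392 to 426 CPM) to SLIRP-1nM DHT (153 to 177 CPM), ERBB3 is higher in both SLIRP siRNA groups, and EGFR, TNK2 and INSR are lower in both.

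Vehicle and DHT were also taken apart. Under each treatment, ERBB2, TNK2, INSR and EGFR were lower and ERBB3 higher in every SLIRP siRNA library than in every NS library. The share of all genes that separates in this way was not counted here either. In vehicle, ERBB2 (log2 fold change −0.78, SE 0.085), TNK2 (−0.79, SE 0.17) and INSR (−0.74, SE 0.18) were called lower, with edgeR FDR values of 2.78e-09, 0.000401 and 0.00129, and ERBB3 was called higher (0.51, SE 0.085, edgeR FDR = 9.89e-06). These are 3 lower and 1 higher of 7, where 9.95% of all 10684 genes tested were lower and 11.8% higher. EGFR differed by −0.50 in vehicle and missed the threshold (SE 0.16, edgeR FDR = 0.0143), but without SLIRP-Veh replicate 4 it was called, at −0.65. In DHT, 4 genes were called lower, against 11.6% of all genes, and 1 higher, against 12.8%. ERBB2 fell by 0.92 (SE 0.088), TNK2 by 0.77 (SE 0.16), INSR by 0.76 (SE 0.17) and EGFR by 0.51 (SE 0.15), while ERBB3 rose by 0.40 (SE 0.084); the edgeR FDR was 0.00711 for EGFR and between 1.33e-10 and 0.000658 for the others. The EGFR call in DHT was lost with DESeq2 (adjusted p = 0.0283) and without the low-count filter (edgeR FDR = 0.0136). It was also lost, with values from −0.53 to −0.45 and an edgeR FDR between 0.0102 and 0.0347, when any NS library or SLIRP-1nM DHT replicate 2, 3 or 4 was left out. The INSR call in vehicle was lost without NS-Veh replicate 3 (−0.63), NS-Veh replicate 4 (−0.68) or SLIRP-Veh replicate 4 (−0.64), and with limma on the normalized table (−0.67, adjusted p = 0.0134).

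The spread over all genes was compared between replicate numbers because the experiments are not labelled. In NS-Veh, replicates 1 and 2 and replicates 3 and 4 differed from each other by a chi-square per degree of freedom of 1.24 to 1.46, and libraries across these pairs by 1.55 to 1.83; in NS-1nM DHT the values were 1.24 to 1.34 and 1.63 to 2.19. In SLIRP siRNA cells they overlapped, at 1.20 to 2.12 and 1.65 to 2.54 in vehicle and 1.53 to 1.95 and 1.91 to 2.74 in DHT. TNK2 and INSR in NS-Veh split the same way, with 41.7 to 42.0 CPM of TNK2 in replicates 1 and 2 against 54.6 to 57.5 in 3 and 4. Depth in NS-Veh differed along the same split. Replicates 1 and 2 had totals of 512925 and 436353 counts, with 21 and 18 on TNK2. Replicates 3 and 4 had totals of 1521674 and 1250287, with 87 and 68 on TNK2. The part of depth in these differences was not tested. With this split as a term, chosen after seeing the data, edgeR called the same number of genes, 5 over 16 libraries, 4 in vehicle and 5 in DHT.

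Within each set of replicates the 5 genes kept their directions, and several calls were lost with fewer libraries. ERBB2 and ERBB3 were called within both sets, over both treatments together and under each treatment. In vehicle, TNK2 differed by −0.39 within replicates 1 and 2 (edgeR FDR = 0.406) and by −1.03 within 3 and 4, and INSR by −0.34 (edgeR FDR = 0.445) and −0.97. In DHT the order was the other way, with TNK2 at −0.93 and −0.64 (edgeR FDR = 0.0207 for the latter) and INSR at −0.89 and −0.58 (edgeR FDR = 0.03). EGFR over both treatments was −0.58 (edgeR FDR = 0.0146) and −0.43 (edgeR FDR = 0.0218). Whether these sets are the experiments was not tested.

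The opposite changes of ERBB2 and ERBB3 were also seen within each library, where the total count cancels. The number of ERBB3 counts per ERBB2 count averaged 0.742 ± 0.091 (SD, n = 4) in NS-Veh and 0.886 ± 0.074 in NS-1nM DHT. With SLIRP siRNA it averaged 1.86 ± 0.14 in SLIRP-Veh, and 2.24 ± 0.25 when DHT was added. The highest NS library was at 0.990 and the lowest SLIRP siRNA library at 1.71. This ratio was chosen after the values of both genes had been seen, so it is a description with no test. Per length of transcript, ERBB3 was below ERBB2 in 8 of 8 NS libraries and above it in 8 of 8 SLIRP siRNA libraries.

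**Figure D3:**
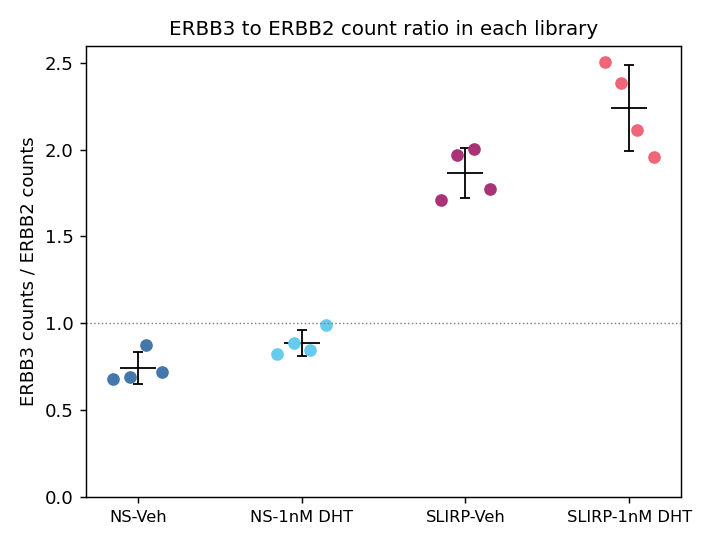
Number of ERBB3 counts divided by the number of ERBB2 counts in each library, by group, with the mean and 1 SD of 4 libraries; the dotted line marks equal counts. All 8 NS libraries lie below 1 (up to 0.990) and all 8 SLIRP siRNA libraries above it (from 1.71).

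The comparison of DHT with vehicle in NS cells asks which genes respond to a low dose of androgen. ERBB2 was the 1 gene of the 7 to be called, and it was lower with DHT, where 0.463% of all 10367 genes tested were called lower. The 392 to 426 CPM of ERBB2 in NS-Veh did not overlap the 299 to 350 CPM in NS-1nM DHT, and the level fell by 0.37 on the log2 scale (SE 0.075, edgeR FDR = 0.00339), a 1.29-fold lower level. The share of all genes tested that separates vehicle from DHT libraries in this way was not counted. The ERBB2 call lies close to the threshold. It was lost when NS-Veh replicate 1 (−0.36), 2 (−0.35) or 4 (−0.37) or NS-1nM DHT replicate 2 (−0.37), 3 (−0.34) or 4 (−0.35) was left out, with an edgeR FDR between 0.0103 and 0.0237, and with limma on the authors' normalized table (−0.35, adjusted p = 0.036). It also missed the threshold within replicates 1 and 2 alone (−0.34, edgeR FDR = 0.0831).

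In SLIRP siRNA cells ERBB2 was again lower with DHT and again the 1 gene called of the 7, where 0.534% of all genes tested were called lower. The level went from 214 to 256 CPM in SLIRP-Veh to 153 to 177 CPM in SLIRP-1nM DHT, a fall of 0.50 (SE 0.092, edgeR FDR = 0.000739). Without SLIRP-Veh replicate 1 the value was −0.43 and missed the threshold (edgeR FDR = 0.016), as it did within replicates 3 and 4 alone (−0.35, edgeR FDR = 0.13). Both DHT comparisons draw on the same groups as the siRNA comparisons, so they are not independent of them.

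IGF1R had its higher values with DHT but did not pass the test. In NS cells its mean was 33.0 ± 8.0 CPM in vehicle and 50.8 ± 12.3 in DHT (SD, n = 4 each), the ranges overlapped, and the log2 difference was 0.56 (SE 0.19, edgeR FDR = 0.126). In SLIRP siRNA cells the 4 DHT libraries, at 37.9 to 43.4 CPM, all lay above the 4 vehicle libraries, at 22.9 to 28.9 CPM, and the log2 difference was 0.62 (SE 0.20, edgeR FDR = 0.0776). ERBB3 in SLIRP siRNA cells also had groups that did not overlap, with 347 to 393 CPM in DHT and 412 to 478 in vehicle. Its log2 difference of −0.24 (SE 0.082) missed the threshold (edgeR FDR = 0.108). The share of all genes tested that separates vehicle from DHT libraries was not counted, so these ranges only describe IGF1R and ERBB3. TNK2, EGFR, INSR and SRC differed by between −0.15 and 0.18 with DHT under either siRNA, and their groups overlapped.

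The difference in DHT response between the siRNAs was tested as an interaction, and 0 of the 7 genes passed. By edgeR 0% of all 10684 genes passed at an FDR of 0.01, and by DESeq2 0 genes did; at an unadjusted p under 0.05 there were 388 genes, none of them among the 7. For ERBB2 the log2 difference in response was −0.14 with a 95% interval of −0.39 to 0.11, for ERBB3 −0.11 (−0.36 to 0.13) and for IGF1R 0.06 (−0.49 to 0.61). The intervals of TNK2 (−0.45 to 0.50), EGFR (−0.46 to 0.43), INSR (−0.53 to 0.49) and SRC (−0.49 to 0.56) are wide.

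**Figure D4:**
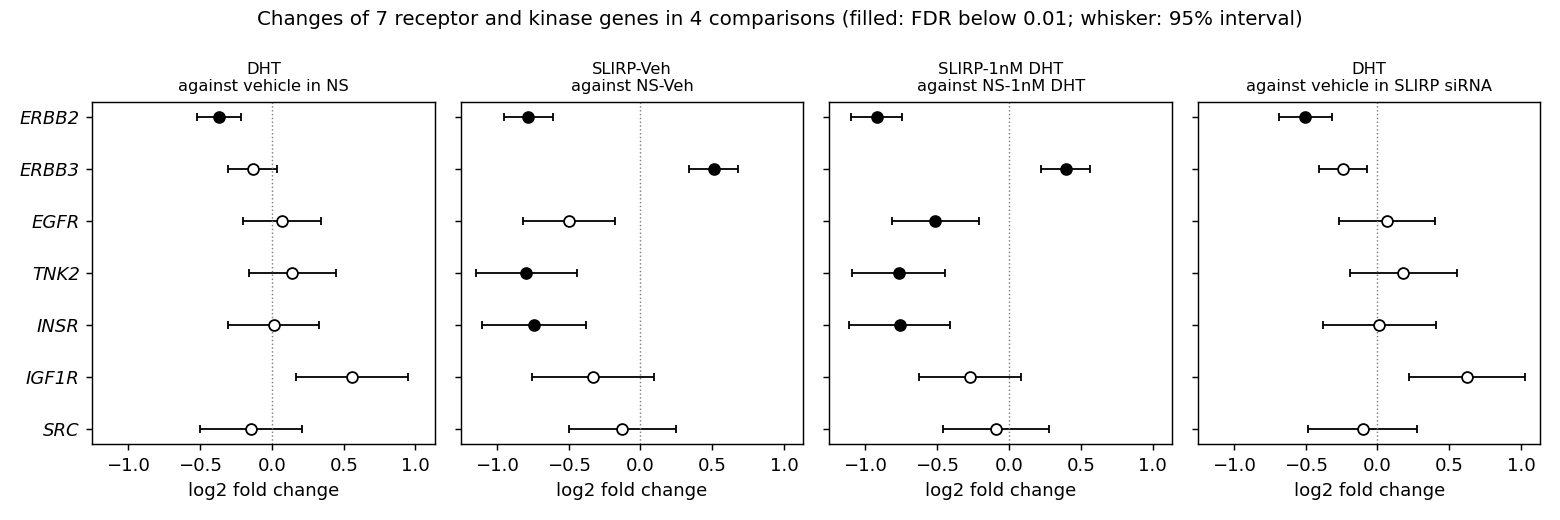
Log2 fold change of the 7 tested genes in 4 comparisons with 95% intervals; filled points passed an FDR of 0.01 by edgeR and open points did not. ERBB2 is filled in all 4 panels, with values from −0.37 to −0.92, and ERBB3 is filled only in the siRNA panels, at 0.51 and 0.40.

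Ligand genes of these receptors mostly failed the low-count filter. Of 14 ErbB, insulin and IGF ligand genes, 2 passed the filter in the comparison of siRNAs, TGFA (log2 difference 0.28) and NRG3 (−0.06). Of these 2, 0 were called, where edgeR called 17.8% of all genes tested higher and 17.4% lower. Among the IGF binding proteins and IGF2R, 3 of 8 were tested. IGF2R, which clears IGF2 and carries no kinase, rose by 0.53 (SE 0.069, edgeR FDR = 2.03e-07), and IGFBP2 fell by 0.48 (SE 0.12, edgeR FDR = 0.00125). IGF2R went from 501 ± 105 CPM in NS-Veh to 719 ± 16 in SLIRP-Veh (SD, n = 4).

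Adaptors, which link receptors to RAS and PI3K, gave 2 higher and 1 lower of 12 tested, with a median log2 fold change of −0.0066. Of all genes tested, edgeR called 17.8% higher and 17.4% lower. PTPN11, the SHP2 phosphatase that aids RAS activation, fell by 0.78 (SE 0.069, edgeR FDR = 1.13e-10), from 399 ± 36 CPM in NS-Veh to 225 ± 17 in SLIRP-Veh. CRKL rose by 0.47 and GRB10, which binds and restrains INSR and IGF1R, rose by 0.30.

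Genes that restrain or turn over receptors gave 3 higher and 2 lower of 12 tested (all genes: 17.8% and 17.4%), with a median of 0.20. RNF41 (Nrdp1), the ubiquitin ligase that directs ERBB3 to degradation, fell by 0.88 (SE 0.076, edgeR FDR = 8.56e-11). Its level was 144 ± 5.6 CPM in NS-Veh and 152 ± 7.2 in NS-1nM DHT, against 76.0 ± 7.1 in SLIRP-Veh, and 83.6 ± 6.2 when DHT was added. PTPN1 (PTP1B), which dephosphorylates the insulin receptor, rose by 0.90 (SE 0.11, edgeR FDR = 7.58e-08), from 37.6 ± 5.9 to 68.5 ± 6.2 CPM in vehicle. LRIG3 (0.73) and CBL (0.38), the ligase that ubiquitinates EGFR, were also higher, and LRIG1, a negative regulator of ErbB receptors, was lower (−0.35).

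Downstream of the receptors, the PI3K, AKT and mTOR genes gave 2 higher and 6 lower of 18 tested, with a median of −0.0745. The shares over all genes tested were 17.8% higher and 17.4% lower. PIK3CB, a catalytic subunit of PI3K, fell by 0.82 (edgeR FDR = 2.07e-10), MTOR by 0.55 and TSC2, an inhibitor of mTOR signalling, by 0.52. RHEB, which activates mTOR, rose by 1.18 (edgeR FDR = 3.02e-09).

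The RAS and MAPK genes gave 2 higher and 4 lower of 10 tested (all genes: 17.8% and 17.4%), with a median of −0.0087. NRAS rose by 0.87 (edgeR FDR = 4.89e-09) and the kinase MAP2K1 by 0.50, whereas MAP2K2 fell by 0.49 and MAPK3 by 0.38. The list therefore holds a pair of near relatives, MAP2K1 and MAP2K2, with opposite calls.

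Among other SRC family kinases and regulators, 2 of 5 tested were higher and 0 lower, with a median of 0.27. LYN rose by 0.55 (SE 0.13, edgeR FDR = 0.000878), and FRK, outside the naming rule because its mean count was 12.5, rose by 1.41. Among Ack1 partners and relatives, 1 of 6 was higher and 2 were lower, with a median of −0.30. NEDD4L was higher (0.31), with means of 313 CPM in NS and 388 in SLIRP siRNA libraries. NEDD4, a ligase of Ack1 that was outside the rule with a mean count of 29.4, fell by 0.80. Its means were 37.2 CPM in NS and 20.7 in SLIRP siRNA libraries. Degradation of Ack1 was not measured. For each of these lists, the median over all genes tested was −0.0145, with 17.8% of them called higher and 17.4% lower by edgeR.

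**Figure D5:**
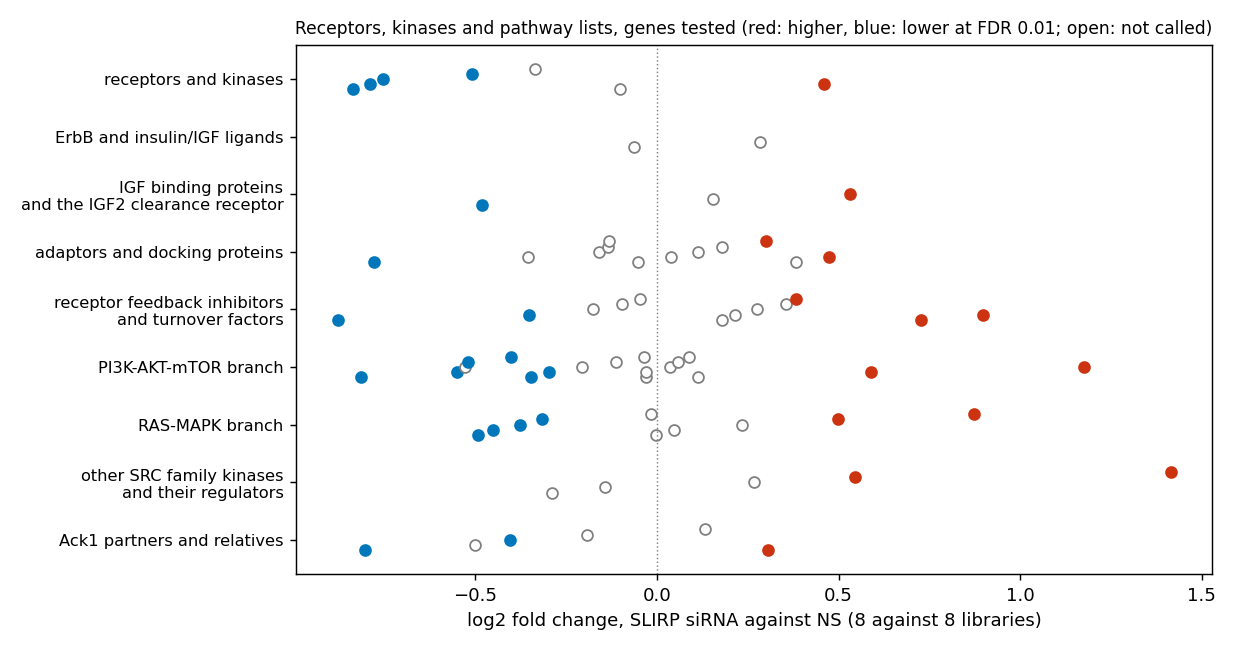
Log2 fold change with SLIRP siRNA against NS (8 against 8 libraries) for each tested gene of the receptor and kinase set and of 8 pathway lists, with 1 point per gene. Points in red were called higher and in blue lower by edgeR at an FDR of 0.01, and open points were not called; most lists hold both colours, and the ligands hold none.

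With DHT in NS cells, 3 genes of the 8 pathway lists passed, all lower. They were 1 of 12 adaptors tested, 1 of 12 genes that restrain or turn over receptors and 1 of 18 PI3K, AKT and mTOR genes. Of all 10367 genes tested, edgeR called 88 higher and 48 (0.463%) lower. GRB10 fell by 0.32 (SE 0.063, edgeR FDR = 0.00245), ERBB2IP (Erbin), a scaffold that binds ERBB2, by 0.38 (SE 0.074, edgeR FDR = 0.00203) and FOXO3, a transcription factor restrained by AKT, by 0.33 (SE 0.069, edgeR FDR = 0.00505). ERBB2IP went from 404 ± 12 to 311 ± 17 CPM. In SLIRP siRNA cells these 3 were lower with DHT too, by 0.44, 0.51 and 0.49, with edgeR FDR values of 8.49e-05, 0.000407 and 0.000119. Of all 10684 genes tested there, 0.534% were called lower.

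Genes whose level followed those of ERBB2 or ERBB3 over the 16 libraries were sought among 10683 tested genes by Pearson's r of log2 CPM. Nearest to ERBB2 were ATP1B1 (0.986), a subunit of the sodium pump, LRP10 (0.974), a lipoprotein receptor relative, and RIMS1 (0.967). Nearest to ERBB3 were NAPEPLD (0.945), which makes N-acylethanolamines, the histone gene H3F3A (0.932) and TULP4 (0.930). The libraries share groups, so these values largely reflect differences between the 4 groups. Between ERBB2 and ERBB3 themselves r was −0.63 over all libraries and −0.061 after the group means were removed.

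The 4 luminal markers and the 4 receptor and kinase genes that were lower with SLIRP siRNA were picked out by the same comparison. That they were lower in the same libraries follows from this choice. Other luminal markers rose with SLIRP siRNA, KLK3 in vehicle and KLK3, KLK2 and TMPRSS2 in DHT. The part of the markers in the receptor values was not tested. In RNA from a whole culture, fewer cells that express a gene and less of its RNA per cell cannot be told apart.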

How the data were processed

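The 16 libraries were single 50-base reads that the authors aligned to hg19; per the labels, CASAVA and RSEM were used, and no versions are given in the sources used here. The authors deposited RSEM estimated counts (expected counts, rounded to whole numbers) for 20531 entries and a normalized table, a score made by dividing each library's counts by its upper quartile and multiplying by 1000, which was used only as an alternative. Depth was 436353 to 1689708 counts per library, and a gene at 3 counts is at the floor. The 24 pairs of libraries within groups had a chi-square per degree of freedom of 1.20 to 2.74, more than sampling noise gives.

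Counts were tested in R 4.3.3 with edgeR 4.0.16 (TMM, filterByExpr, glmQLFit and glmQLFTest) over all genes, with Benjamini-Hochberg adjustment and an FDR of 0.01. SLIRP siRNA against NS used 16 libraries without covariates, DHT in NS used 8 libraries, and the other comparisons were contrasts of a 4-group model over 16. CPM used TMM-scaled totals of the genes that passed the filter, and log2 CPM a prior count of 2. The test was checked on simulated data. Alternatives were DESeq2 1.42.0, RLE and upper-quartile normalization, a low-count filter left out or set to 10 counts in each library, vehicle or DHT as a covariate, replicate number as a block, limma 3.58.1 on log2(normalized value + 1), leaving out each library and, added after seeing the data, a split into replicates 1 and 2 and replicates 3 and 4, as a term and within each set.

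Gene positions, transcript lengths (canonical transcript) and exon overlaps came from GENCODE on hg19, and promoter windows from RefSeq on GRCh38.p14. The 10 genes and the pathway and marker lists were chosen with earlier results of these data known. The genes named were the 10, SLIRP and KLK3, up to 3 largest rises and falls of each list in the comparison of siRNAs (FDR below 0.01, mean count of at least 30), list genes called for DHT in NS, and the 3 genes most like each called gene with a mean count of at least 100. Some genes that this rule chooses are not reported here, but remain in the tests and counts. FRK, NEDD4 and the overlapping genes were named after their values were seen. Figures used matplotlib 3.10.9. Protein sequences were not used here. Whether libraries of a group came from separate cultures is stated only in the study's methods, without the replicate numbers.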

Additional observations from a re-analysis of the deposited data

Results flagged for a closer look

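A library was singled out where its gap to the nearest of the other 3 in its group took up more of the group's range than Dixon's 95% limit allows. Of 40 groups examined (10 genes in 4 groups), 4 met this. Chance gives about 1 in 20 for normally distributed values, a rate that does not apply to genes with counts of 0 or 1. INSR in NS-1nM DHT replicate 1 was at 101 CPM, with the other 3 libraries at 61.0 to 64.0 and a mean of 62.9 without it. The log2 fold change of INSR with DHT in NS cells was 0.01 with this library and −0.16 without it, not called in either case. The other 3 were ERBB4 in NS-Veh replicate 4 (0.803 CPM), SLIRP-Veh replicate 3 (1.35 CPM) and SLIRP-1nM DHT replicate 4 (0.804 CPM), each a single count beside 3 libraries at 0, which is within the floor of 3 counts. A group with a single library above 0 always meets the rule.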

How the results depend on the processing

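The values recomputed were log2 fold changes and numbers of genes called. With another tool, scaling, filter, covariate, block, table or split of the replicates, 443 of 488 were kept. With a library left out, 702 of 768 were kept. A fold change was kept if it held its direction and side of the threshold. A number called was kept within a small margin, so 5 to 4 and 4 to 3 counted as kept and 1 to 0 did not. The 5 genes called for SLIRP siRNA over 16 libraries were called under each alternative run except within replicates 1 and 2 or 3 and 4 alone, where 4 were called and EGFR was not. The number called for DHT in NS cells went from 1 to 0 with limma on the normalized table; between siRNAs it went from 4 to 3 in vehicle with limma (INSR lost) and from 5 to 4 in DHT with DESeq2 and without the low-count filter (EGFR lost). Leaving out libraries gave 0 to 1 genes for DHT in NS and 0 to 1 for DHT in SLIRP siRNA cells, 3 to 4 between siRNAs in vehicle and 4 to 5 in DHT. Signs changed for uncalled values near 0. For the difference in DHT response, EGFR was 0.0041 and INSR 0.0024 with RLE, INSR 0.0112 and SRC −0.0259 with the replicate block, and IGF1R −0.0236, SRC −0.14 and TNK2 −0.11 with limma; leaving out libraries gave −0.15 to 0.15 for EGFR, −0.0751 to 0.18 for IGF1R, −0.11 to 0.18 for INSR, −0.11 to 0.19 for SRC and −0.0683 to 0.15 for TNK2. For DHT in SLIRP siRNA cells, INSR was −0.0091 with upper-quartile scaling and −0.0177 with limma, and leaving out libraries gave −0.0809 to 0.11 for INSR, −0.0796 to 0.23 for EGFR and −0.23 to 0.0132 for SRC. Leaving out libraries gave −0.16 to 0.11 for INSR with DHT in NS, and for SRC −0.24 to 0.0367 in vehicle and −0.21 to 0.0549 in DHT between siRNAs. The cause of these changes was not tested.

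The split into replicates 1 and 2 and replicates 3 and 4 was added after seeing the data. Within 1 and 2, 2 genes were called between siRNAs in vehicle, 4 in DHT, 0 for DHT in NS and 1 in SLIRP siRNA cells; within 3 and 4 these were 4, 2, 1 and 0. Signs changed for uncalled values. For the difference in DHT response, EGFR was 0.32, IGF1R −0.27, SRC −0.31 and TNK2 −0.54 within 1 and 2, ERBB2 0.0672 and INSR 0.38 within 3 and 4, and INSR 0.0087 and SRC −0.0342 with the split as a term. For DHT in NS, INSR was −0.0105 with the term and −0.30 within 3 and 4, and TNK2 −0.0028 within 3 and 4. For DHT in SLIRP siRNA cells, INSR was −0.0252 and TNK2 −0.0511 within 1 and 2, and EGFR −0.21 and SRC 0.0433 within 3 and 4. Between siRNAs, SRC in vehicle was 0.13 within 1 and 2 and IGF1R in DHT 0.0135 within 3 and 4.

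With the replicate number as a block the numbers of genes called were 5 for the siRNAs over 16 libraries, 4 in vehicle, 5 in DHT, 1 and 1 for DHT in NS and SLIRP siRNA cells, and 0 for the difference in response, as without it. Over all genes the block raised the calls for DHT in NS from 136 to 270. Same-numbered libraries correlated in their deviations from the group means at a mean r of 0.0287 to 0.14 over 6965 genes, and not every library correlated best with its own number, so the numbers were not taken to pair the samples. With DESeq2, 91 genes were called for DHT in NS, with limma 27, and without the low-count filter 236; in SLIRP siRNA cells limma called 62 and no filter 220, against 125. With the split of the replicates as a term, 293 and 201 were called for DHT in NS and SLIRP siRNA cells, and within its sets 75 and 98, and 75 and 73. Between siRNAs the sets gave 2057 and 2128 over both treatments, against 3581, 1297 and 1465 in vehicle, against 2319, and 1738 and 1569 in DHT, against 2607. For the difference in response, 11 genes were called without the filter and 1 and 3 within the sets, none of them among the 7. IGF1R, SRC and TNK2 had as few as 10, 13 and 18 counts in a library, which limits their precision.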
